A study of Phalaenopsis aphrodite subsp. formosana with 4 samples.

Results

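Flower buds of the moth orchid Phalaenopsis aphrodite subsp. formosana were compared with leaves of plants grown at the same low temperature, by their microRNAs (miRNAs). The comparison takes 2 of the 4 small RNA libraries of the study, that of flower buds (FB) and that of leaves under low temperature (CL). All plants were seedlings of strain M1624. CL came from plants moved to 24°C by light and 18°C by dark, with leaves collected every 0.5 month from month 0 to month 2. FB came from plants of the same low temperature group, with buds collected at month 3.5. The temperature treatment is described as lasting 2 months, and no source used here gives the temperature of the bud plants after that. The other libraries, untreated leaves (NL, 32°C and 27°C, month 0 to 2) and stalks (S, 24°C and 18°C, months 1.5 and 2), are given beside the values as reference. Each organ is represented by 1 library. Material was harvested from independent lines at each time point, of which the methods give a minimum number, and the exact number of plants behind a library is not stated. A ratio therefore compares the libraries FB and CL, there is no replicate check, and no test between organs was made. Organ, plant age and collection time cannot be told apart.

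Members were the miRNA families and sequences with at least 100 reads summed over FB and CL. Sequences were put in 1 family by the miRNA number of their best match in miRBase, and 28 of the 301 families found in the 2 libraries were kept. They held 99.7% of the 669697 matched reads of FB and CL. Of 7865 sequences found in either library 165 were kept, with 95.4% of the reads. Within a family the sequences are called forms and numbered by their reads over FB and CL.

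Plant miRNAs are cut from hairpin precursors by DICER-LIKE1 and loaded into ARGONAUTE proteins, where they pair with messenger RNAs that are then cleaved or kept from translation. Pairing in the seed, bases 2 to 8 from the 5′ end, weighs heavily, and the first base and the length influence which ARGONAUTE protein takes up the small RNA. In flowering, miR156 is known to hold plants in the juvenile phase through SPL transcription factors, and miR172 to act on AP2-like repressors of flowering that also set floral organ identity.

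Reads that matched a known miRNA numbered 265352 in FB and 404345 in CL, which was 4.20% and 5.46% of the clean reads. Levels are reads per 1000000 clean reads (RPM), at which 1 read stands for 0.158 RPM in FB and 0.135 in CL. Matched reads as a whole were lower in FB, at a ratio of 0.769 (0.765 to 0.772), so ratios per matched read all lie above the ratios of RPM. Reads below 18 nt made up 17.6% of the high quality reads of FB and 9.05% of those of CL, and their part in the results was not tested. The tables hold reads with a match to a known miRNA only, so no marker gene of bud or leaf could be looked up. Other small RNAs, such as the 24 nt class, are not analysed here.

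The comparison of bud and leaf turns on the sequences of a few families. Capitals mark the seed, and each sequence is written 5′ to 3′. The forms of miR172, the regulator of AP2-like genes, are shown because bud and leaf used different ones.
miR172 form 1: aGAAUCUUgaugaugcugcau
miR172 form 2: cGAAUCUUgaugaugcugcau
miR172 form 3: aGAAUCAUgaugaugcugcaa
miR172 form 4: gGAAUCCUgaugaugcugcau
miR172 form 7: aGAAUCUUgaugaugcugccu
miR172 form 10: uGAAUCUUgaugaugcugcuu
Positions are counted from 1 at the 5′ end of the form named first. Form 2 differs from form 1 by A1C, outside the seed, form 7 by A20C, and form 10 by A1U and A20U, so these 4 forms share the seed GAAUCUU. Form 3 (U7A, U21A) and form 4 (A1G, U7C) differ from form 1 within the seed.

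The forms of miR535 and of the SPL regulators miR156, miR157 and miR529 are shown together because miR535 resembles miR156 and its forms also differed between bud and leaf.
miR535 form 1: uGACAACGagagagagcacgc
miR535 form 2: uGACGAUGagagagagcacgc
miR535 form 3: uGACAAAGagagagagcacgc
miR156 form 1: cUGACAGAagauagagagcac
miR156 form 2: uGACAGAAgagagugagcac
miR156 form 3: uUGACAAAgagagagagcacg
miR157 form 1: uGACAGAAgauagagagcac
miR529 form 2: aGAAGAGAgagaguacagccu
In miR535, form 2 differs from form 1 by A5G and C7U and form 3 by C7A, and all of these changes lie in the seed. miR156 form 3 is miR535 form 3 moved by 1 base, although its best match is a miR156. miR157 form 1 is miR156 form 1 without its first base. miR156 form 2 and miR157 form 1 share the seed GACAGAA.

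For the other families, the forms shown had the highest or lowest ratios or are a leading form of a family described here.
miR167 form 1: uGAAGCUGccagcaugaucuga
miR167 form 2: uGAAGCUGccagcaugaucugu
miR167 form 3: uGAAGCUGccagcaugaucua
miR164 form 1: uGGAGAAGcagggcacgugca
miR164 form 2: uGGAGAAGcagggcacguguu
miR164 form 4: uGGAGAAGcagggcacauguu
miR169 form 1: cAGCCAAGgaugacuugccga
miR171 form 1: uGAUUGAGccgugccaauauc
miR171 form 2: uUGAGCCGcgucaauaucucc
miR159 form 1: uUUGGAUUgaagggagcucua
miR319 form 1: uUGGACUGaagggagcucccu
miR160 form 1: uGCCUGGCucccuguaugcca
miR166 form 1: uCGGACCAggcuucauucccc
miR165 form 2: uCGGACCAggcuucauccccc
miR396 form 1: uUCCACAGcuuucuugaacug
miR394 form 1: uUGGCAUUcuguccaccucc
miR168 form 1: uCGCUUGGugcaggucgggac
miR397 form 1: uUGAGGGCagcguugaugaaa
miR528 form 1: uGGAAGGGgcaugcagaggag
All 3 forms of miR167 share the seed GAAGCUG and all 3 of miR164 the seed GGAGAAG, so these forms differ in their 3′ parts. The forms shown of miR165 and miR166 share the seed CGGACCA. miR171 forms 1 and 2 do not share a seed, since form 2 is form 1 moved by 3 bases, with 2 bases changed where they overlap.

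In flower buds 9 of the 28 families were higher than in leaves and 6 were lower, where higher means a ratio of RPM above 1.5 and lower a ratio below 0.667. These are 32.1% and 21.4% of the families, and they are the background for the groups below. Of the 165 kept sequences 23.0% were higher and 33.3% lower, which is the background for the counts of forms. Brackets give the exact binomial 95% interval of a ratio, which covers counting error of independent reads only. Differences between plants and between libraries lie outside it. PCR copies of a molecule are not independent reads of it, so the interval may be too narrow. The higher families were miR169, miR319, miR160, miR171, miR397, miR172, miR165, miR159 and miR535, with ratios from 1.52 to 32.6. The lower ones were miR168, miR396, miR157, miR156, miR1318 and miR167, from 0.574 down to 0.142. The intervals of all 15 lay beyond the limit. The median ratio of the 28 families was 0.939. In whole organs, fewer cells of a type and less miRNA per cell cannot be told apart.

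With matched reads as the denominator, 11 families were higher and 5 lower, which is 39.3% and 17.9%. miR162 (1.81) and miR1023 (1.59) then joined the higher families, and miR168 (0.747) left the lower ones. The other 14 calls were the same with both denominators.

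**Figure D1:**
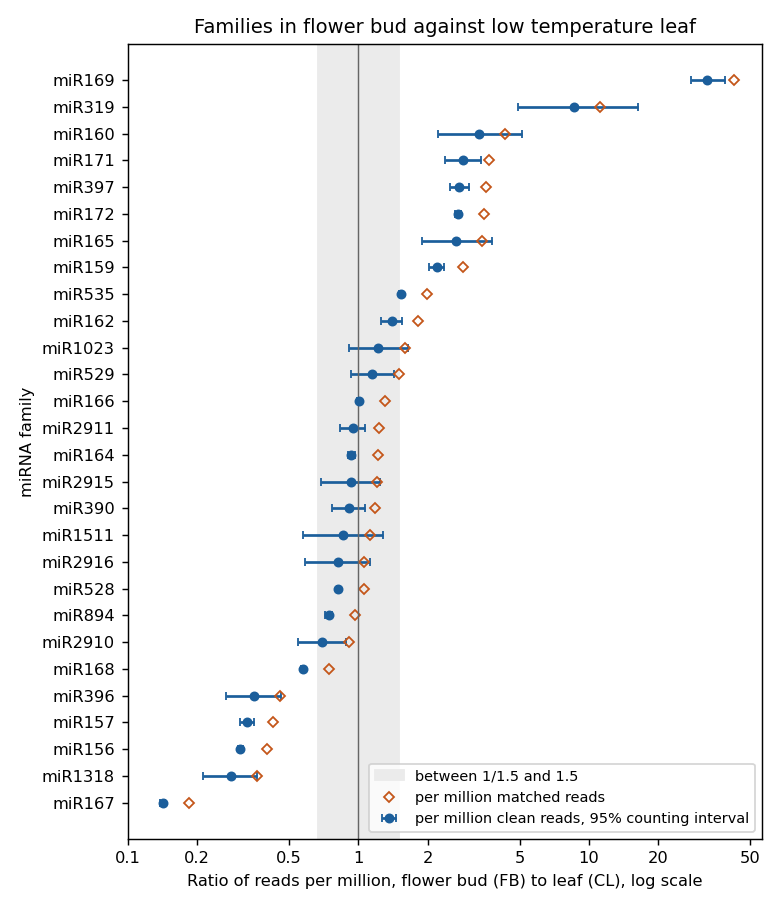
Ratio of FB to CL for each of the 28 families on a log axis, per clean read (filled points, bars are exact 95% counting intervals) and per matched read (open diamonds). The grey band runs from 1/1.5 to 1.5. miR169 stands at 32.6 at the top and miR167 at 0.142 at the bottom, and the matched read ratios all lie to the right of the clean read ratios.

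Of the phase transition list (miR156, miR157, miR529, miR535 and miR172), 2 families were higher in buds, 2 lower and 1 between the limits, with a median ratio of 1.15. miR172 was found at 2356 RPM in FB and 873 in CL, beside 2565 in S and 1852 in NL. Its ratio of FB to CL was 2.70 (2.62 to 2.78), and CL was the lowest of the 4 libraries. miR156 was found at 1251 RPM in FB and 4063 in CL, beside 391 in S and 1594 in NL, with a ratio of 0.308 (0.300 to 0.316). miR157, a close relative of miR156, was found at 172 RPM in FB and 524 in CL, beside 20.96 in S and 288 in NL, with a ratio of 0.328 (0.307 to 0.351). For both, CL was the highest of the 4 libraries and S the lowest. The main form of miR157, with 93.6% of its reads in CL and 91.5% in FB, is miR156 form 1 without its first base. The 2 lower calls are thus not separate results. Joined into 1 family, miR156 and miR157 gave 0.310.

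The relation of miR172 to miR156 within a library does not depend on the denominator. For each read of miR156 and miR157 there were 0.190 reads of miR172 in CL and 1.66 in FB, with 0.984 in NL and 6.23 in S. Leaves at low temperature thus held more miR156 and miR157 than miR172 reads, and buds and stalks the reverse.

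The higher level of miR172 in buds was the net of opposite differences between its forms. Form 1, which has no mismatch to a known miR172 of Arabidopsis, was found at 1075 RPM in FB and 45.8 in CL, beside 1836 in S and 30.7 in NL, a ratio of 23.5 (21.03 to 26.2). Form 2, which begins with C, was found at 25.8 RPM in FB and 607 in CL, beside 57.4 in S and 1318 in NL, a ratio of 0.0425 (0.0361 to 0.0497). Form 2 made up 69.5% (68.4 to 70.7) of the family's reads in CL and 1.10% (0.934 to 1.28) in FB, and form 1 5.25% (4.72 to 5.82) of the family's reads in CL and 45.6% (44.8 to 46.4) in FB.

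Form 2 was higher in NL and CL than in S and FB, and form 1 the reverse. How many of all kept sequences and families part the libraries in this way, here and below, is not given. Without form 2 the family had a ratio of 8.76 (8.36 to 9.19). Reads beginning with C were 73.1% of miR172 in CL and 1.32% in FB, those beginning with A 20.6% and 67.01%, and those beginning with G 6.02% and 29.7%.

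Several miR172 forms were almost absent from leaves. Form 4 had 2178 reads in FB and 1 in CL, beside 764 in S and 0 in NL, and its ratio, on 1 leaf read, was 2551 (457 to 100805). Form 7 had 472 reads in FB and 2 in CL, beside 828 in S and 0 in NL, a ratio of 276 (76.1 to 2289). Form 6, which is form 4 without its first base, had 591 reads in FB and 3 in CL, beside 159 in S and 0 in NL, a ratio of 231 (78.6 to 1122). Form 10 had 105 reads in FB and 0 in CL, beside 0 in S and 1 in NL, at least 40.99-fold higher in FB than in CL when the 0 reads of CL are read as up to 3.

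Form 10 was the only kept sequence found in FB and not in CL, and no kept sequence was found in CL alone. Also, unlike forms 4 and 7 it had 0 reads in stalks, which allows up to 3. Counted by bases 2 to 12, whatever the ends of the read, the sequences like form 4 had 4 reads in CL and 3010 in FB, those like form 3 had 1054 and 2599, and those like forms 1 and 2 had 5283 and 8985. Their ratios were 881 (344 to 3237), 2.89 (2.69 to 3.11) and 1.99 (1.93 to 2.06). Of the 10 kept forms of miR172, 9 were higher in buds and form 2 was lower.

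miR535, which resembles miR156 and acts on SPL genes in rice, was the second family of FB by reads and the sixth of CL. It was found at 5948 RPM in FB and 3900.4 in CL, beside 677 in S and 2293 in NL, and its ratio of 1.52 (1.50 to 1.55) lay just above the limit. The main form had 3268 RPM in CL and 3556 in FB, a ratio of 1.09 (1.07 to 1.11).

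Form 2 had 97.7 RPM in CL and 1912 in FB, a ratio of 19.6 (18.1 to 21.1), with 43.2 in NL and 64.5 in S. FB alone was high in this form, which went from rank 32 among all sequences in CL to rank 5 in FB. Without form 2 the family had a ratio of 1.06 (1.04 to 1.08), so the call of miR535 rests on this form, and it has 2 mismatches to the known miR535. Form 3 stood on the other side, with 192 RPM in CL and 21.2 in FB and a ratio of 0.110 (0.0917 to 0.132).

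The same contrast was seen in form 5, a shorter read, and in miR156 form 3, a shifted one. Form 5, which is form 2 without its first base, had 16 reads in CL and 341 in FB, a ratio of 24.96 (15.2 to 44.2). By bases 2 to 12, whatever the best match, the ratio was 1.10 (1.08 to 1.12) for sequences like form 1, 19.8 (18.4 to 21.3) for those like form 2 and 0.0951 (0.0819 to 0.110) for those like form 3. The last count takes in miR156 form 3, with 770 reads in CL and 28 in FB and a ratio of 0.0426 (0.0281 to 0.0621), the lowest of the kept miR156 forms. All counts by bases 2 to 12 contain the reads of the forms themselves, so they are no separate support. Form 2 gave 723 of the 755 reads in CL and 12077 of the 12744 in FB. Reads named miR156 or miR157 that hold bases 2 to 12 of a miR535 form were 2.95% of these families in CL and 3.19% in FB.

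All 5 kept forms of miR156 and the 1 of miR157 were lower in buds. miR157 form 1, which is miR156 form 1 without its first base, had a ratio of 0.321 (0.299 to 0.345). The longer main form of miR156, form 1, had 2495 RPM in CL and 560.2 in FB, a ratio of 0.225 (0.217 to 0.233), and form 2, the 20 nt form common to many plants, 1225 RPM in CL and 556 in FB, a ratio of 0.454 (0.436 to 0.472). Form 1 made up 61.4% (60.9 to 61.96) of the family's reads in CL and 44.8% (43.7 to 45.9) in FB, so the forms were nearly equal in buds. miR529 was between the limits at 1.15 (0.927 to 1.43). Its form 1 has 4 mismatches or gaps to the known miR529 and a ratio of 0.846 (0.647 to 1.10). Form 2, with 1 mismatch, had 39 reads in FB and 14 in CL, beside 147 in S and 13 in NL, a ratio of 3.26 (1.73 to 6.51) on fewer reads than the limit of 100.

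**Figure D2:**
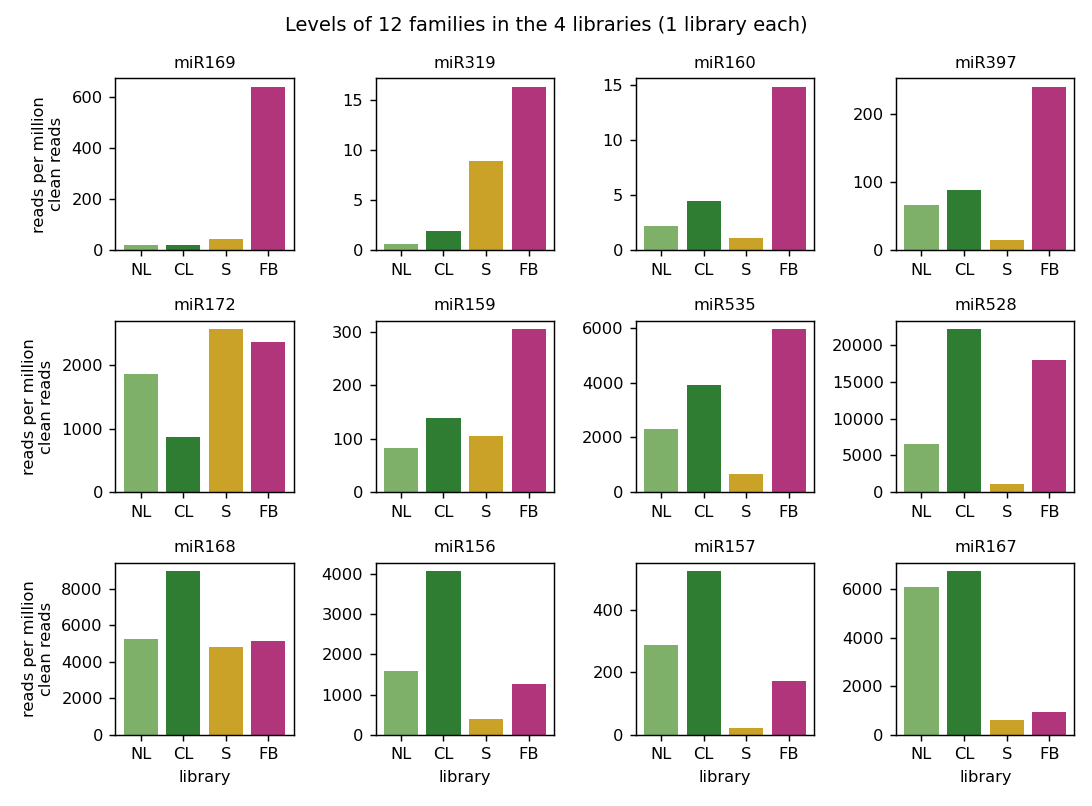
Levels of 12 families in RPM (bars, 1 library each, each panel with its own axis from 0) in NL, CL, S and FB. miR169 reaches 643 RPM in FB against at most 42.3 in the other libraries, miR156 and miR157 are highest in CL, and miR167 is high in both leaf libraries.

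miR169, which acts on subunits of the NF-Y transcription factor, had the highest ratio of all families. It was found at 643 RPM in FB and 19.7 in CL, beside 42.3 in S and 20.4 in NL, so that FB stood apart from the other 3 libraries, and the ratio to CL was 32.6 (27.6 to 38.7). It moved from rank 21 of the families in CL to rank 10 in FB. Form 1 made up 60.3% (51.9 to 68.3) of the family's reads in CL and 84.8% (83.7 to 85.9) in FB.

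Form 1 had 3445 reads in FB and 88 in CL, beside 127 in S and 108 in NL, a ratio of 45.9 (37.1 to 57.3), and form 2, which lacks its first base, 135 reads in FB and 3 in CL, beside 5 in S and 3 in NL, a ratio of 52.7 (17.7 to 259). Form 4, which differs from form 1 at the last base, had 42 reads in FB and 19 in CL, beside 121 in S and 7 in NL, and its ratio was 2.59 (1.47 to 4.71). The sequences of the family other than form 1 had a ratio of 12.4. The other families of the nutrient list had too few reads for a call. miR395, which acts on sulfate assimilation, had 5 reads in CL and 2 in FB, the phosphate regulator miR399 had 37 reads in CL and 17 in FB, and miR827, also tied to phosphate, had 0 reads in CL and 1 in FB.

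miR159 and miR319, which act on GAMYB and on TCP transcription factors in turn and share most of their sequence, were both higher in buds. miR159 was found at 305 RPM in FB and 139.7 in CL, beside 106 in S and 83.04 in NL, a ratio of 2.19 (2.03 to 2.36), and FB was the highest of the 4 libraries. A further miR159 sequence that the study lists is not analysed here, so the levels and the call concern the sequences used here and not the whole family. The main form of 21 nt had a ratio of 1.58 (1.41 to 1.77). The 18 nt form 2, its first 18 bases, had a ratio of 2.69 (2.30 to 3.15), and the 18 nt form 3, which differs from form 2 by C17U, 5.43 (3.40 to 9.04) on 22 reads in CL and 102 in FB.

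miR319 had 103 reads in FB and 14 in CL, beside 71 in S and 4 in NL. Both leaf libraries were low and both reproductive libraries high, and the ratio of FB to CL was 8.62 (4.91 to 16.3). Its main form had 8 reads in CL and 53 in FB, a ratio of 7.76 (3.67 to 18.9). The median ratio of these 2 families was 5.40, against 0.939 over all families.

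The auxin families went in different directions: of 3 with enough reads, miR160 was higher, miR167 lower and miR390 between the limits, with a median ratio of 0.911. miR167, which acts on auxin response factors needed for flower maturation in Arabidopsis, was found at 955 RPM in FB and 6738 in CL, beside 596 in S and 6091 in NL. Its ratio of 0.142 (0.138 to 0.146) was the lowest of the 28 families. Leaves were high and the reproductive organs low.

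The miR167 forms differed in direction. The 22 nt forms 1 and 2, which differ by A22U, had 4542 RPM in CL and 384 in FB and 1296 RPM in CL and 78.4 in FB, with ratios of 0.0845 (0.0810 to 0.0880) and 0.0605 (0.0551 to 0.0662). The 21 nt form 3 had 365 RPM in FB and 88.9 in CL, beside 435 in S and 50.5 in NL, a ratio of 4.10 (3.76 to 4.48) in the other direction. It made up 1.32% (1.22 to 1.42) of the family's reads in CL and 38.2% (36.98 to 39.4) in FB.

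The other 21 nt form with a perfect match, form 5 (A21G from form 3), went with the 22 nt forms, with 106 RPM in CL and 13.6 in FB and a ratio of 0.128 (0.102 to 0.161). Form 3 was the only one of the 14 kept miR167 forms that was higher in buds, and the other 13 were lower. Forms 9 to 14 had few reads in FB and passed the minimum through CL, so the filter favours lower calls among them. Among perfect matches, which leave out forms 1 and 2, the family ratio turned to 1.91, and among reads of 21 nt to 1.43. Without form 3 it was 0.0888 (0.0858 to 0.0918). The lowest ratio of any kept sequence was that of form 14, a 22 nt sequence that differs from form 1 by A3C, at 0.0314 (0.00637 to 0.0941) on 112 reads in CL and 3 in FB. Forms 9, 10, 11, 12 and 13, which are also among the 10 lowest kept sequences with form 2, have 22 to 24 nt and ratios of 0.0491, 0.0694, 0.0605, 0.0418 and 0.0837. In turn they had 12, 15, 11, 5 and 8 reads in FB, so their order is uncertain. Form 12 differs from form 1 by A11C, and lower 1-base variants of miR528 also changed bases 3 and 11. Whether forms 12 and 14 are miRNAs of their own or misread copies of form 1 was not tested.

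miR160, which acts on another set of auxin response factors, had 94 reads in FB and 33 in CL, beside 9 in S and 16 in NL, a ratio of 3.34 (2.22 to 5.12), with FB the highest library and S the lowest. Its main form had a ratio of 2.90 (1.80 to 4.82). miR390, which starts the phased siRNAs that act on auxin response factors, had 45.7 RPM in CL and 41.6 in FB, a ratio of 0.911 (0.773 to 1.07). Its main form had a ratio of 0.693 (0.568 to 0.843) and its other sequences one of 1.95. The auxin receptor regulator miR393 had 18 reads in CL and 10 in FB, too few for a call.

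**Figure D3:**
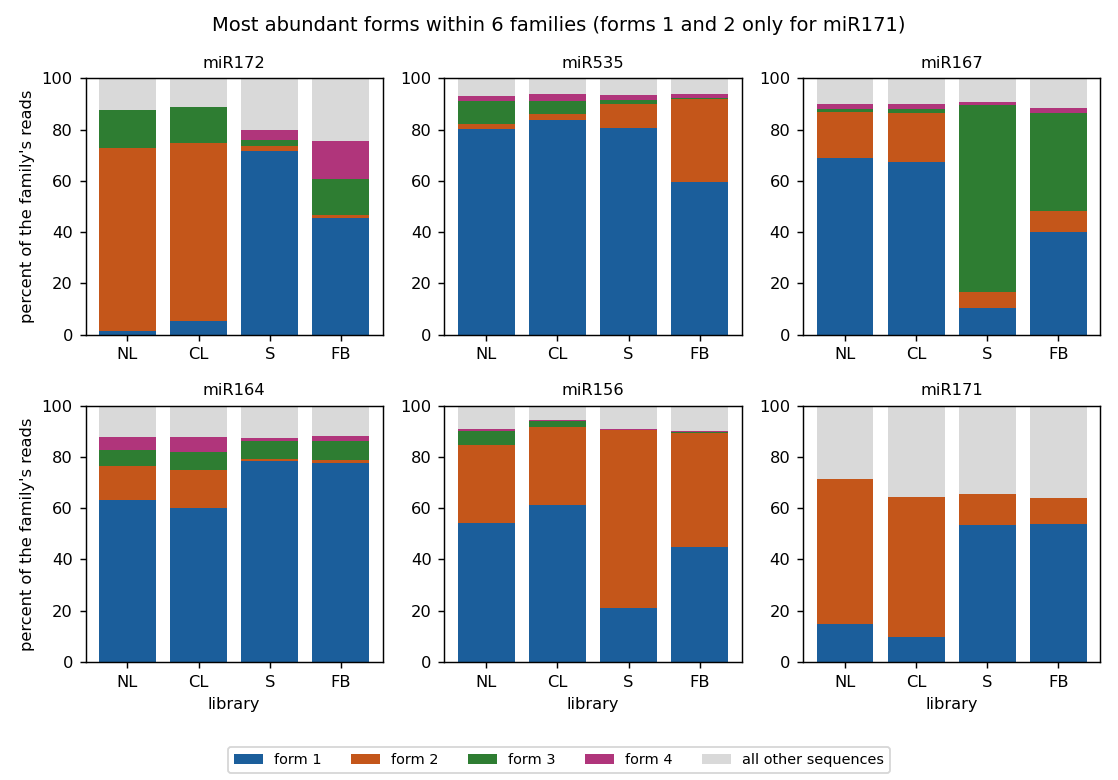
Share of a family's reads (percent, 1 stacked bar per library) taken by its forms 1 to 4, and by forms 1 and 2 for miR171, with all other sequences in grey. In miR172 form 2 fills 69.5% of CL and form 1 45.6% of FB, in miR535 form 2 takes 2.51% of CL and 32.1% of FB, and in miR167 form 3 takes 1.32% of CL and 38.2% of FB.

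Among the families of organ boundaries and polarity, 1 of 3 with enough reads was higher in buds and none lower, with a median ratio of 1.01. miR164, which limits organ boundaries through NAC genes, was between the limits with 867 RPM in CL and 808 in FB and a ratio of 0.932 (0.898 to 0.967), yet its forms differed. Form 1 had 519.9 RPM in CL and 628 in FB, a ratio of 1.21 (1.16 to 1.26). Form 2, which differs by C20U and A21U, had 49 reads in FB and 964 in CL, beside 9 in S and 675 in NL, a ratio of 0.0595 (0.0437 to 0.0793). Form 4, with G17A besides these changes, had 85 reads in FB and 374 in CL, beside 14 in S and 262 in NL, a ratio of 0.266 (0.208 to 0.338).

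Both leaf libraries were thus high in the miR164 forms that end in UU, and S and FB low. Form 5, with A21U alone, had a ratio of 1.10 (0.824 to 1.47). Without form 1 the family had a ratio of 0.518.

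miR166, which guides the upper and lower sides of leaves by acting on HD-ZIP III genes, had 4811 RPM in CL and 4839 in FB, and its ratio of 1.01 (0.991 to 1.02) was the nearest to 1 of all families. Of its 21 kept forms 8 were higher in buds, 1 was lower and 12 were between the limits. Over all kept sequences 23.0% were higher and 33.3% lower. The main form had a ratio of 0.795 (0.779 to 0.811), and the lower one, form 21 (A8C), 0.631 (0.406 to 0.965). Truncated at the 3′ end to 20, 19 and 18 nt (forms 4, 2 and 3), the ratio was 1.15, 1.34 and 1.72.

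Forms 8, 11 and 12, which differ from the main form by C18U, C19U and C20U, had ratios of 3.02 (2.48 to 3.70), 3.38 (2.50 to 4.61) and 1.97 (1.47 to 2.66) on 361, 173 and 126 bud reads. miR165, which acts on the same genes and is named by its best match, had 111 reads in FB and 49 in CL, beside 55 in S and 61 in NL, a ratio of 2.65 (1.88 to 3.79). Its most frequent sequence, form 1, has 19 nt, 2 mismatches or gaps and a ratio of 2.93 (1.76 to 5.04). The perfect form shown above had 16 reads in CL and 28 in FB, a ratio of 2.05 (1.07 to 4.06). Joined with miR166 it gave 1.01. miR394, which acts on an F-box gene of the shoot meristem in Arabidopsis, had 44 reads in FB and 7 in CL, beside 1 in S and 4 in NL, a ratio of 7.36 (3.29 to 19.4) but below the limit of 100 reads.

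miR171, a regulator of GRAS transcription factors in meristems, was higher in buds and miR396, which acts on growth-regulating factors, was lower, with a median ratio of 1.60. miR171 had 417 reads in FB and 172 in CL, beside 110 in S and 216 in NL, a ratio of 2.84 (2.37 to 3.41), and its main form was not the same in bud and leaf. Form 1, a perfect match to a rice miR171, had 225 reads in FB and 17 in CL, beside 59 in S and 32 in NL, a ratio of 15.5 (9.47 to 27.1). Form 2, with 3 mismatches or gaps, had 41 reads in FB and 94 in CL, beside 13 in S and 122 in NL, a ratio of 0.511 (0.345 to 0.745). Form 1 made up 9.88% (5.86 to 15.4) of the family's reads in CL and 53.96% (49.04 to 58.8) in FB.

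miR171 and miR172 were the 2 families of the 28 whose main form differed between FB and CL. Without form 1 the miR171 ratio was 1.45, and without form 2 it was 5.65 (4.41 to 7.30). miR396 had 70 reads in FB and 232 in CL, beside 28 in S and 269 in NL, a ratio of 0.353 (0.267 to 0.464), with both leaf libraries high, and its main form one of 0.364 (0.261 to 0.502). Several miR396 sequences that the study lists are not analysed here, so the levels and the call concern the sequences used here and may differ from those of the whole family.

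Of the families that act on the small RNA pathway itself, 1 of 2 with enough reads was lower in buds and none higher, with a median ratio of 0.984. miR168, which acts on ARGONAUTE1, was found at 5143 RPM in FB and 8959 in CL, beside 4797 in S and 5236 in NL, a ratio of 0.574 (0.566 to 0.582), with CL the highest library. Its 3 leading forms differ in the last base alone (from form 1, C21A in form 2 and C21U in form 3), and their ratios were 0.653 (0.641 to 0.665), 0.534 (0.520 to 0.548) and 0.364 (0.347 to 0.382). Of 13 kept forms 7 were lower and none higher, where 33.3% of all kept sequences were lower and 23.0% higher. Per matched read the family was between the limits. miR162, which acts on DICER-LIKE1, had 88.5 RPM in CL and 123 in FB, a ratio of 1.39 (1.25 to 1.55), and its main form one of 1.36 (1.20 to 1.53). miR403, which acts on ARGONAUTE2 in Arabidopsis, had 0 reads in the tables used here.

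Of the copper and laccase list, 1 of 2 families with enough reads was higher in buds and none lower, with a median ratio of 1.78. miR528, a monocot family that acts on copper-containing oxidases, had the most reads in both organs, at 17966 RPM in FB and 22114 in CL, beside 1179 in S and 6539.5 in NL. Its ratio of FB to CL was 0.812 (0.806 to 0.819), between the limits, and per matched read it was 1.06. The study's northern blots, unlike the reads here, which are the study's own, detected neither miR528 nor miR167 in flower buds. The blots placed miR169 mainly in flower buds and miR172 in stalks and buds. They also placed miR156, miR167 and miR396 mainly in leaves, and miR159, miR164 and miR166 in stalks. The main form made up 88.8% (88.7 to 88.96) of the family's reads in CL and 88.4% (88.2 to 88.6) in FB, and had a ratio of 0.809 (0.802 to 0.815). Form 3, with 1 more A at the 3′ end, had 408 RPM in CL and 188 in FB, a ratio of 0.462 (0.431 to 0.494), and form 4, which lacks the last base, 174 RPM in CL and 219 in FB, a ratio of 1.26 (1.17 to 1.36). Form 6, of 19 nt, was the most abundant of the higher forms, with a ratio of 1.53 (1.30 to 1.81).

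All 63 sequences that differ from the main miR528 form by 1 base were found. Their reads came to 3.80% of those of the main form in CL, 4.32% in FB, 4.06% in NL and 4.65% in S. Of the 37 with at least 100 reads, 28 were between the limits, 3 higher and 6 lower, around a median of 0.973. Higher and lower calls were thus rarer than among all kept sequences (23.0% and 33.3%). The 3 higher ones carried G19U (ratio 1.68), G19C (ratio 2.58) and G19A (ratio 2.60). Of the 6 lower ones, 3 were at base 3, with G3C (ratio 0.234), G3A (ratio 0.288) and G3U (ratio 0.591). The others carried A11C (ratio 0.260), A11G (ratio 0.577) and U1A (ratio 0.508). These few calls fell on 4 positions of the 21. Whether the variants are miRNAs of their own or misread copies of the main form was not tested.

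miR397, which acts on laccases, had 239.5 RPM in FB and 87.4 in CL, beside 14.5 in S and 66.1 in NL, a ratio of 2.74 (2.50 to 3.01), with FB the highest library and S the lowest. Its main form, with a ratio of 2.72 (2.47 to 2.99), has 4 mismatches or gaps to the known miR397, which makes the name less certain. The copper family miR398 had 2 reads in CL and 4 in FB, and miR408, another copper family, had 22 reads in FB and 11 in CL, beside 0 in S and 5 in NL. The laccase family miR857 had 1 read in each of CL and FB.

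No family of the list of triggers of phased siRNAs, which in grasses are made in anthers, reached 100 reads. miR2275 had 5 reads in CL and 7 in FB, miR482 had 3 reads in CL and 3 in FB, and miR2118 had 0 reads. Of the 5 families that resemble fragments of ribosomal RNA, 4 had enough reads and all 4 lay between the limits, with a median of 0.871: miR2911 at 0.947 (0.834 to 1.07), miR2915 at 0.928 (0.689 to 1.25), miR2916 at 0.814 (0.585 to 1.13) and miR2910 at 0.698 (0.549 to 0.884). With high quality reads as the denominator miR2910 was lower in buds, at 0.624. The main sequences had few reads in FB and CL, except for miR2911 form 1, with a ratio of 1.14 (0.962 to 1.34), and its 4 mismatches or gaps make the name less certain. miR2910 form 1 had 31 reads in CL and 31 in FB, miR2915 form 1 had 27 reads in CL and 14 in FB, and miR2916 form 1 had 17 reads in CL and 10 in FB.

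Of the remaining families, miR1318, first named in rice, had 69 reads in FB and 289 in CL, beside 183 in S and 182 in NL, a ratio of 0.280 (0.212 to 0.365), with FB the lowest of the 4 libraries. Its main form had 171 reads in CL and 28 in FB, a ratio of 0.192 (0.124 to 0.287). miR894, miR1511 and miR1023 lay between the limits at 0.744 (0.717 to 0.771), 0.860 (0.577 to 1.27) and 1.22 (0.907 to 1.65). miR1511 form 1 had 33 reads in CL and 26 in FB, and miR1023 form 1 had 24 reads in CL and 22 in FB. With high quality reads as the denominator miR894 passed the limit and was lower, at 0.665. Its main form had a ratio of 0.534 (0.493 to 0.578), and form 4, the most abundant of the higher ones, 1.53 (1.32 to 1.78). miR894 held its difference in the lengths: its reads of 18 nt had a ratio of 1.57 (1.45 to 1.71), those of 20 nt one of 0.605 (0.566 to 0.646) and those of 24 nt one of 0.282 (0.223 to 0.353). Of its 22 kept forms the 4 that were higher had 18 or 19 nt, and the 10 that were lower had 20 to 24 nt. Among all kept sequences the shares were 23.0% higher and 33.3% lower.

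By single sequences, 38 of the 165 were higher in buds and 55 lower, or 23.0% and 33.3%, around a median ratio of 0.937. With matched reads as the denominator, 58 were higher and 44 lower, or 35.2% and 26.7%. The 10 highest ratios belonged to miR172 (5 forms), miR169 (2), miR535 (2) and miR171 (1). The 10 lowest belonged to miR167 (7 forms), miR156, miR164 and miR172 (1 each).

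Families could hide their forms. Of 12 families with at least 2 kept sequences, 7 had sequences called in both directions, namely miR166, miR167, miR171, miR172, miR528, miR535 and miR894. Of the 10 most abundant sequences of each library, 5 were shared. miR167 form 1 stood at rank 2 in CL and rank 15 in FB, while miR172 form 1 stood at rank 50 in CL and rank 7 in FB. To reach 90% of the matched reads took 30 sequences in CL and 43 in FB. The 1947 sequences found in both libraries were 39.1% of those of CL and 40.3% of those of FB, but held 98.9% and 98.4% of the reads.

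**Figure D4:**
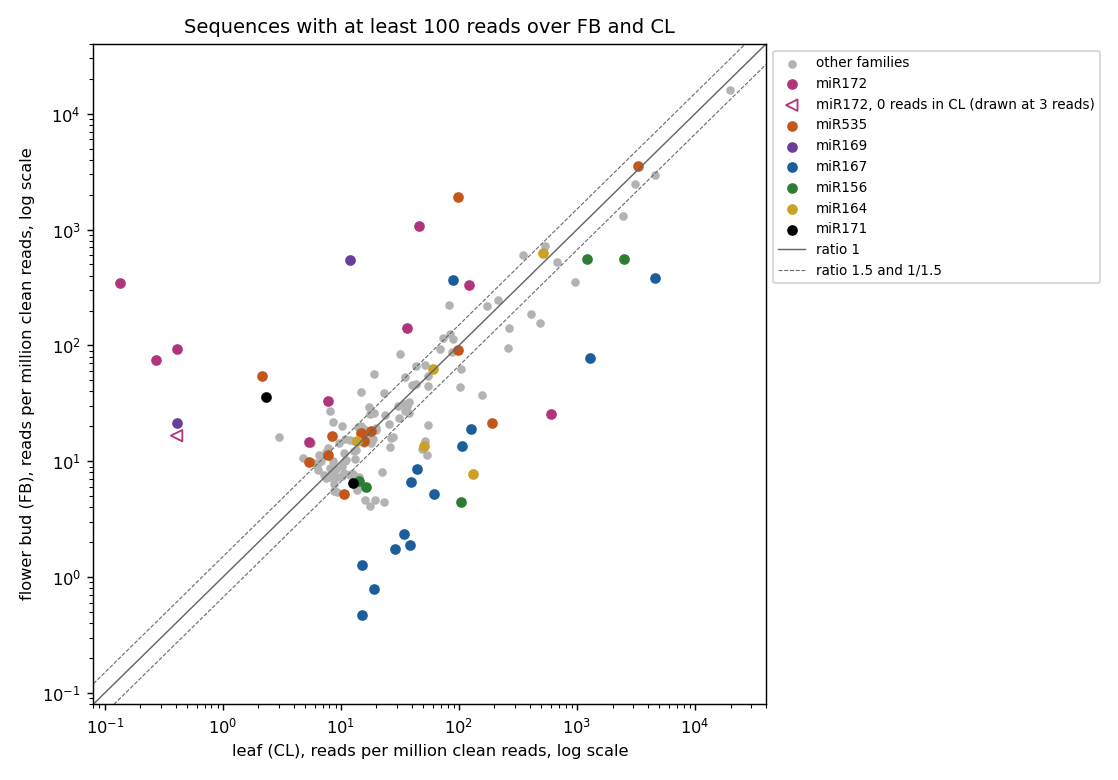
Level of each of the 165 kept sequences in CL (x axis) and FB (y axis), in RPM on log axes, coloured for 7 families. Solid and dashed lines mark ratios of 1, 1.5 and 1/1.5, and the triangle is miR172 form 10, drawn at 3 reads in CL. Of the miR172 sequences 9 of 10 stand above the lines, at ratios up to 2551, and of the miR167 sequences 13 of 14 below them, down to 0.0314. Sequences read almost only in 1 library passed the minimum through that library, so these counts are partly set by the filter.

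Leaf and bud also differed in read length. Reads of 22 nt were 12.5% of matched reads in CL and 2.22% in FB, and miR167 gave 88.97% of them in CL and 52.4% in FB. Without miR167 the share of 22 nt was 1.57% and 1.08%. Reads of 18 nt were 1.46% in CL and 3.01% in FB, a ratio of RPM of 1.59 (1.54 to 1.65), beside the higher share of reads below 18 nt in FB given above. Their share was higher in FB in each of the 8 families with at least 100 reads of 18 nt over FB and CL, among them miR159 (27.7% in CL, 39.1% in FB), miR166 (8.18% and 13.9%) and miR894 (13.4% and 28.3%). In the other 5, which were miR2911, miR528, miR156, miR167 and miR535, the share was 57.9% in CL and 66.5% in FB for miR2911 and below 1% in both for the rest.

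**Figure D5:**
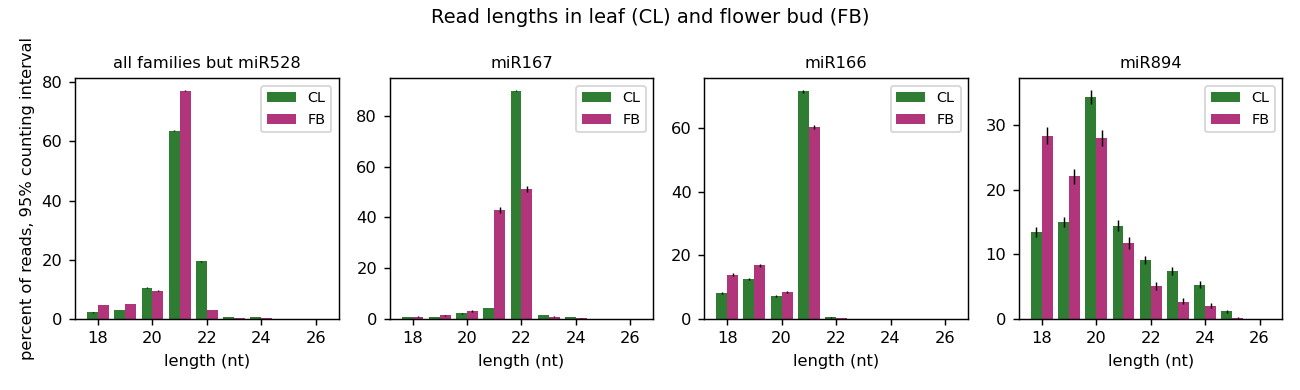
Share of reads by length (percent, bars with exact 95% counting intervals) in CL and FB for all families but miR528 and for miR167, miR166 and miR894. In miR167 the 22 nt bar goes from 90.05% in CL to 51.2% in FB and the 21 nt bar from 4.24% to 42.9%.

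Grouped by seed, whatever the name, 75 seeds had at least 100 reads, of which 15 were higher in buds and 23 lower. The miR172 seed GAAUCUU, shared by forms 1 and 2, had a ratio of 1.86 (1.80 to 1.93), below that of form 1, and form 2 carries the same seed. The seed of form 4, GAAUCCU, had 1 read in CL and 2264 in FB. In miR535 the seed GACAACG of form 1 had a ratio of 1.10 (1.08 to 1.12), the seed GACGAUG of form 2 one of 19.7 (18.3 to 21.2) and the seed GACAAAG of form 3 one of 0.116 (0.0979 to 0.137). The miR156 and miR157 seed GACAGAA had a ratio of 0.420 (0.407 to 0.435), and UGACAGA, the seed of the longer miR156 form 1, one of 0.227 (0.219 to 0.235). For miR167 the seed GAAGCUG, common to forms 1, 2, 3 and 5, had 0.142 (0.138 to 0.145), so the opposite difference of form 3 did not show at the level of the seed.

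Just inside the limit of 100 reads lay miR1511 with 111 reads over FB and CL and miR319 with 117. Just outside lay miR2914 with 92 (a ratio of 1.91), miR829 with 80 (2.18) and miR1171 with 79 (0.452).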

How the data were processed

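Small RNAs of 20 to 25 nt were cut from gels, sequenced on an Illumina 1G Genome Analyzer by the authors, trimmed, and kept at 18 nt or more, with known contaminants removed. The authors matched the clean reads with BLAST (version not given in the sources used here) to plant miRNAs of miRBase 15. The deposited tables give, per unique sequence, the count of reads, the best match and its mismatches and gaps. The counts are not normalised. The tables hold matches with up to 5 mismatches and gaps, and all were kept. Sequences are given with T in the tables and written with U here.

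Counts were divided by the study's clean reads (7399031 for CL, 6317171 for FB) or by matched reads. A family took its number from the best match. Ratios of FB to CL carry exact conditional binomial 95% intervals (Python 3.11.15, SciPy 1.17.1, pandas 2.3.3). Their code was checked on simulated reads that vary by counting error alone. That check cannot speak to PCR copies or differences between plants. A count of 0 stands for at most 3 reads. With 1 library per group no test was possible. The text names every family with at least 100 reads over FB and CL, every list member, the main sequence of each family, the 10 highest and 10 lowest sequence ratios, those with reads in 1 library alone, and the main one of each direction in families called both ways. Other sequences were chosen after their values were seen. The members and lists were chosen with earlier results of these data known. Alternatives changed the denominator, matches, lengths, limits and minimum reads.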

Additional observations from a re-analysis of the deposited data

How the results depend on the processing

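Across 15 alternative settings, 34 of 46 counts of higher or lower members stayed within 1.5 times the value reported and 12 did not. The 9 families higher in buds became 5 among perfect matches, 5 among matches with at most 1 mismatch or gap, 16 with a minimum of 20 reads and 5 with one of 1000. The 6 lower families became 10 when an interval leaving out 1 was the criterion. The 38 higher sequences became 58 per matched read, 62 per matched read without miR528, 136 with a minimum of 20 reads, 10 with one of 1000 and 24 at a ratio limit of 2. The 55 lower sequences became 175 with a minimum of 20 reads and 18 with one of 1000. Other minimums change the number of members compared. Another denominator multiplies all ratios by the same factor. A ratio limit of 2 keeps only a part of the calls, and the interval criterion is another definition of a call. For the settings that restrict the matches the cause was not tested.

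Of 282 ratios of families, 177 stayed within the counting interval of the value reported, 103 moved beyond it and 2 reversed, both of miR167: 1.91 among perfect matches and 1.43 among reads of 21 nt, settings that leave out its forms 1 and 2. miR535 fell below the limit with high quality reads as the denominator (1.36), among perfect matches (1.09) and with at most 1 mismatch or gap (1.04). With high quality reads miR2910 and miR894 joined the lower families, at 0.624 and 0.665, 8 in all. miR172 ranged from 1.55 without form 1 to 23.5 among perfect matches, and miR169 from 12.4 to 44.1. miR156 kept within 0.224 to 0.441, and miR319, which has few reads, within 7.71 to 11.7. Leaving out form 2 of miR172, miR535 or miR171, or form 3 of miR167, was chosen after seeing the data. With 1 library per organ, variation between plants cannot be separated from the difference between bud and leaf, and the intervals cover counting error only.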
